A study of Arabidopsis thaliana with 3 samples.

Results

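The genes of chlorophyll and tetrapyrrole metabolism are 39 nuclear genes, picked by their AGI locus identifiers from the 27416 genes measured in whole plants of Arabidopsis thaliana, and all 39 were present in the data. They cover the route from glutamyl-tRNA to chlorophyll, the branch to haem and bilins, 2 regulators of the route, and chlorophyll breakdown. By role they are 4 genes of 5-aminolevulinic acid (ALA) synthesis, 8 genes of the common trunk to protoporphyrin IX, 13 genes of the chlorophyll branch, 4 genes of the haem and bilin branch, the regulators GUN4 and FLU, and 8 genes of breakdown. The plants were wild-type Col-0, the common laboratory accession, at 3 weeks of age, untreated and grown on plates of MS medium at 23 ± 2 °C under days of 16 h light and 8 h dark. Total RNA depleted of ribosomal RNA was sequenced in 1 group of 3 libraries, which the labels number 4, 5 and 6. Nothing in the labels says that the libraries came from separate cultures, so the spread between them may be technical, and the labels give no time of day of harvest. Since there is a single group, what can be read from the values is how high each gene stood, in which order, and in what ratio to other genes of the same library.

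Tetrapyrroles are ring molecules that carry a metal or are opened to linear bilins. In plants the whole route up to chlorophyll and much of haem synthesis runs in plastids, from enzymes encoded in the nucleus. The rings are made from ALA, and at protoporphyrin IX the route divides: insertion of magnesium leads to chlorophyll, and insertion of iron leads to haem and on to the bilin chromophore of phytochrome. Free intermediates before chlorophyll are phototoxic, so the synthesis of ALA and the steps around the branch point are tightly controlled by light, the clock and feedback. The light-dependent step, reduction of protochlorophyllide, is made by the POR enzymes, of which PORA is known as the form of dark-grown seedlings, while PORB and PORC are known from green tissue.

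The regions just upstream of the 3 POR genes are shown first, because these genes encode the same enzyme and had the most unequal levels of any paralogs compared. Each sequence is the 250 bases before the annotated start of the gene in the RefSeq annotation of TAIR10.1, written 5′ to 3′ on the strand of the gene. They lie at chr5:21992815-21993064 (minus strand) for PORA, chr4:13725296-13725545 (plus strand) for PORB and chr1:907273-907522 (plus strand) for PORC. Capitals mark the letters of 6 motifs searched on both strands. These were the G-box CACGTG, the I-box GATAAG, the evening element AAAATATCT, the CCA1 site AAAAATCT, the GLK-type motif CCAATC and the TATA box TATAAA.
PORA: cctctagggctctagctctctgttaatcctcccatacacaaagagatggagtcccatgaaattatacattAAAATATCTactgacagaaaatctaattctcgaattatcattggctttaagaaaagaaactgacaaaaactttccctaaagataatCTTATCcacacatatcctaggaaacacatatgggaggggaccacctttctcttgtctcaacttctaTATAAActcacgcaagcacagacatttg
PORB: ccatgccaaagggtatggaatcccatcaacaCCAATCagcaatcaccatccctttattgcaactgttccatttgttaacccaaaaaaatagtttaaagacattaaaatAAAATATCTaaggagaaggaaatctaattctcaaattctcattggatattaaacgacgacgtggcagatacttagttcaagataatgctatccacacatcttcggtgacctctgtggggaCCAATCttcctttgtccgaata
PORC: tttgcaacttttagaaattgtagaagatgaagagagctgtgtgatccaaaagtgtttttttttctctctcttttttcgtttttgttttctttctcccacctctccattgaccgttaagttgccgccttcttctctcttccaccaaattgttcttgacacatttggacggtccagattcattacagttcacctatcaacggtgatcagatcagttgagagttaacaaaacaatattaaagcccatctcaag
The window of PORA held an evening element 180 bases before the start, the reverse complement of an I-box at 94 and a TATA box at 28. The window of PORB held an evening element at 142 and GLK-type motifs at 219 and 22. The window of PORC held none of the 6. No motif of the 6 contains another.

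The POR genes are close paralogs without long identical stretches. The coding sequences of PORB and PORA were 83.3% identical over 1206 aligned bases, and the longest run they shared without a mismatch was 44 bases, at the start codon. That run is printed because it is the longest stretch of coding sequence in which PORB and PORA are identical. It lies at chr4:13725648-13725691 in PORB and chr5:21992730-21992773 in PORA. For comparison, the longest run shared by PORB and PORC had 20 bases, at chr4:13726625-13726644 in PORB and chr1:908777-908796 in PORC. PORA lies on the minus strand, PORB and PORC on the plus strand.
PORB and PORA: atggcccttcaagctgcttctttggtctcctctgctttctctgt
PORB and PORC: gcaaaggcttacaaagacag
No word of 50 bases from the transcripts of any POR gene occurred elsewhere in the genome. The read length is not given in the sources used here.

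As a set the 39 genes stood high in the transcriptome. FPKM are fragments scaled to the length of the gene and to a total of the library, so that levels of different genes can be set side by side. Errors that a gene's value carries in all 3 libraries, as from the length used, do not show in the spread between libraries. In every library 38 of 39 were at 1 FPKM or more, the level taken here as detected. The same held for 63.0% of 27197 nuclear genes that code for proteins or have no listed type. At 10 FPKM or more in every library there were 35 members, against 35.7% of nuclear genes, and at 100 FPKM or more there were 12 members, against 4.19% of nuclear genes. The median member had 77.6 FPKM and the median nuclear gene 4.71 FPKM. Within each library, the median of the members on the log2(FPKM + 1) scale was above that of the nuclear genes by 3.78 ± 0.022 (SD, n = 3, 3.76 to 3.80 in single libraries). Of the 39 genes, 26 lay in the top 10% of nuclear genes by mean level and 37 above the median gene. PORA and SGR2 were the 2 below it, at percentiles 26.5 and 39.8. Together the 39 genes held 0.544 ± 0.0034% of the summed FPKM of nuclear genes, and the 5 highest of them held 45.2 ± 0.12% of the members' sum.

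**Figure D1:**
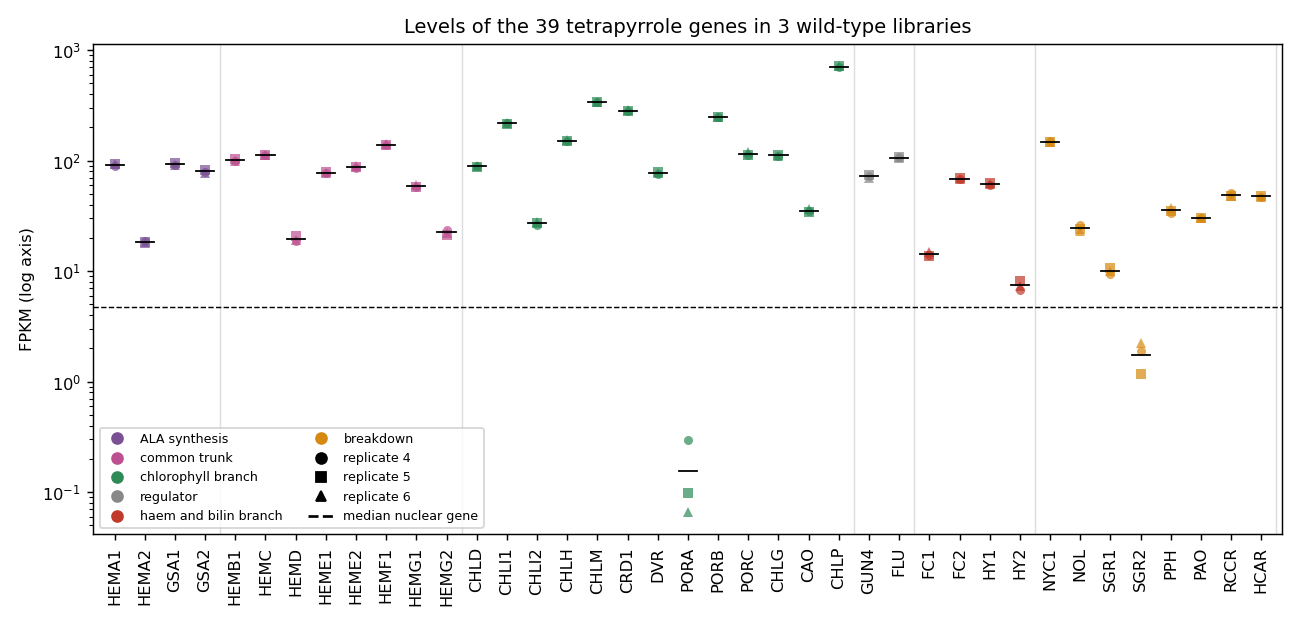
FPKM on a log axis for each of the 39 genes in replicates 4, 5 and 6 (points), with the mean of the 3 libraries as a bar and the median nuclear gene (4.71 FPKM) as a dashed line; colours give the role. Points of 1 gene lie almost on top of each other except in PORA and SGR2, the only 2 genes below the dashed line.

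**Figure D2:**
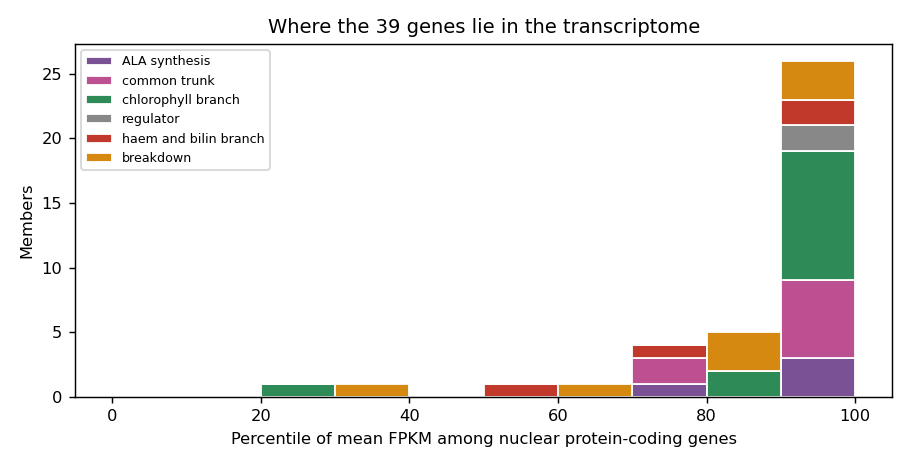
Number of the 39 genes (vertical axis) in bands of 10 percentiles of mean FPKM among nuclear genes that code for proteins or have no listed type (horizontal axis), coloured by role. The highest band holds 26 of the 39 genes.

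Markers of green shoot were high, those of root were uneven, and those of flower and seed were near 0. RBCS1A, LHCB1.3 and BCA1 of green shoot summed to 26540 to 26936 FPKM over the libraries, and all 3 were detected. The 3 root markers were detected too, with PYK10 at 1196 ± 3.5, CASP1 at 4.27 ± 0.733 and TIP2;3 at 1.59 ± 0.146 FPKM. None of 3 flower and 2 seed markers reached 1 FPKM, their sums being 0.0319 to 0.266 and 0.115 to 0.429 FPKM over the libraries. Of 4 senescence markers, ORE1 had 9.18 ± 0.485 FPKM and NAP 2.50 ± 0.686 FPKM. SAG12 and SAG13 were at 0 throughout, which leaves room for 0.115 and 0.132 FPKM (3 counts). Fewer cells of a type and less RNA per cell cannot be told apart in whole plants, and the part of tissue mixture in the levels was not tested.

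Levels are means ± SD over 3 libraries. In ALA synthesis, the committed and rate-limiting part of the route, the main gene of each pair was near 92 FPKM. HEMA1 (AT1G58290, chromosome 1, 21623700 to 21626402, TAIR10.1), the light-regulated glutamyl-tRNA reductase, had 88.8, 92.7 and 93.4 FPKM in replicates 4, 5 and 6. HEMA2 (AT1G09940), a second reductase gene known for expression also in non-green tissue, had 18.6, 18.1 and 17.9 FPKM. The ranges do not overlap, and HEMA1 was 5.03 ± 0.24 times HEMA2, with a log2 difference of 2.27 ± 0.066 that was above 0 in 3 of 3 libraries. GSA1 and GSA2 encode the aminotransferase that completes ALA. GSA1 had 90.5, 95.2 and 90.7 FPKM, and GSA2 had 79.4, 82.2 and 77.8 FPKM. These 2 genes were much closer than the HEMA pair, with a log2 difference of 0.20 ± 0.017 for GSA1 over GSA2 in 3 of 3 libraries. No test was run on this or on any other ratio, because flipping signs over 3 libraries allows no exact two-sided p smaller than 0.25. The count of libraries on each side of 0 stands in its place.

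Paralogs in this part of the route were also similar in sequence. HEMA1 and HEMA2 were 83.1% identical over 1581 aligned coding bases and GSA1 and GSA2 83.5% over 1419, yet the longest runs they shared had 49 and 38 bases, and none of the 4 genes shared a word of 50 bases with any other place in the genome. The run of the HEMA pair is the longest found between any of the paralogs aligned, and lies at chr1:21625481-21625529 in HEMA1 and chr1:3238584-3238632 in HEMA2, both on the minus strand.
HEMA1 and HEMA2: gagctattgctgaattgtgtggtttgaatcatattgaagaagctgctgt

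The common trunk condenses ALA into the ring and oxidises it to protoporphyrin IX. All 8 of its genes were detected, and their median within a library was 82.7 ± 1.19 FPKM. HEMF1 (LIN2, coproporphyrinogen III oxidase) was highest at 139.6 ± 0.697 FPKM, followed by HEMC (porphobilinogen deaminase) at 112 ± 0.788 and HEMB1 (ALA dehydratase) at 100.6 ± 1.72 FPKM. HEMD (AT2G26540, chromosome 2, 11287308 to 11290361), the uroporphyrinogen III synthase that closes the ring, was the lowest, with 18.7, 20.7 and 19.1 FPKM. Summed over the genes of a step, the 8 steps of ALA synthesis and trunk had 19.5 ± 1.04 FPKM at HEMD and between 80.7 and 172 FPKM at the other 7, so the HEMD step stood apart in every library.

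**Figure D3:**
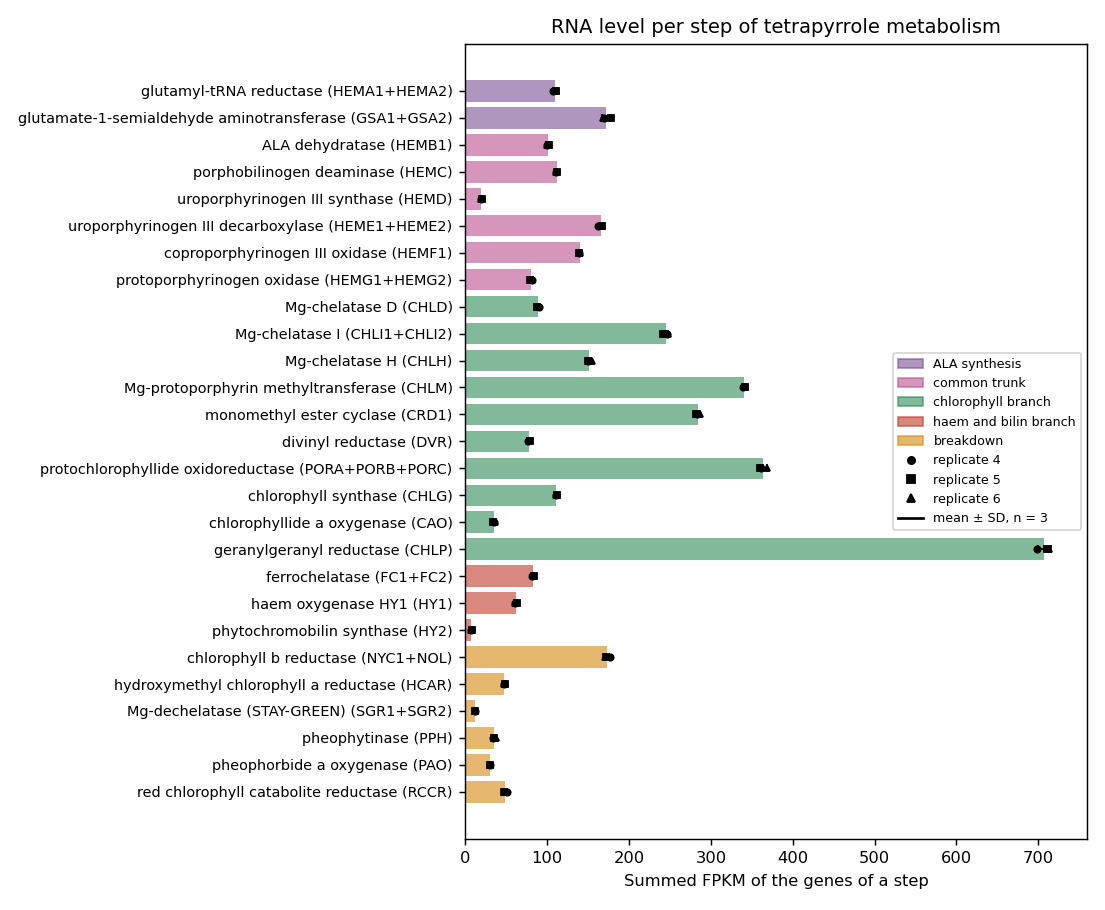
Summed FPKM of the genes of each enzymatic step (bars, mean of 3 libraries; whiskers, SD; points, replicates 4, 5 and 6), in the order of the pathway from top to bottom. The steps of uroporphyrinogen III synthase (19.5 FPKM), phytochromobilin synthase (7.42 FPKM) and STAY-GREEN (11.8 FPKM) are the shortest bars, and geranylgeranyl reductase (707 FPKM) is the longest.

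Paired genes of the trunk were unequal to different degrees. The decarboxylases HEME2 and HEME1 had similar levels, 84.9, 88.0 and 89.7 FPKM for HEME2 and 77.7, 78.6 and 77.2 FPKM for HEME1, a log2 difference of 0.17 ± 0.045 in 3 of 3 libraries. HEME2 and HEME1 were 61.7% identical in coding sequence. Protoporphyrinogen oxidase was less even: HEMG1, the plastid form, had 57.9, 57.4 and 59.7 FPKM, and HEMG2, the form known from mitochondria, had 23.7, 21.3 and 22.1 FPKM. HEMG1 was thus higher by 1.35 ± 0.081 on the log2 scale in 3 of 3 libraries, and held 72.3 ± 1.17% of the step. The medians of the 4 ALA genes and of the 8 trunk genes differed by 0.043 ± 0.028 on the log2 scale (ALA synthesis over trunk, 3 of 3 libraries), a difference whose sign turned to -0.10 when means over members replaced medians.

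The chlorophyll branch held the highest genes. Its 13 genes had a median of 115 ± 3.53 FPKM within a library, and 12 of them were detected. CHLP (AT1G74470, chromosome 1, 27991165 to 27993445), the geranylgeranyl reductase that makes the phytol tail of chlorophyll and also serves tocopherol synthesis, was the highest of all 39, with 698, 711 and 713 FPKM. It was followed by CHLM (Mg-protoporphyrin methyltransferase) with 339, 342 and 342 FPKM and by CRD1 (the cyclase that forms the fifth ring) with 283, 281 and 287 FPKM. None of these 3 genes overlapped with the next in the order.

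Magnesium insertion is made by a chelatase of 3 kinds of subunit, and their RNAs were present in unequal amounts. CHLI1 (AT4G18480, chromosome 4, 10201672 to 10203469), the main ATPase subunit, had 219.9, 215 and 219 FPKM. CHLH (GUN5, AT5G13630, chromosome 5, 4387307 to 4392429), the large porphyrin-binding subunit, had 149.6, 149.6 and 154 FPKM. CHLD had 90.2, 87.8 and 89.3 FPKM, so the order was CHLI1, CHLH, CHLD in each library. CHLH exceeded CHLD by 0.76 ± 0.030 on the log2 scale and CHLI1 exceeded CHLD by 1.28 ± 0.0051, each in 3 of 3 libraries. The ratio of CHLI1 to CHLD had the smallest SD of the 19 gene ratios, ranging between 2.44 and 2.46 over the libraries. The second I subunit, CHLI2 (AT5G45930), had 26.4, 27.2 and 27.8 FPKM, and CHLI1 was 8.03 ± 0.26 times as high, a log2 difference of 2.96 ± 0.046. The coding sequences of CHLI1 and CHLI2 were 81.8% identical with no shared word of 50 bases. GUN4, which binds porphyrins and activates the chelatase, had 72.4, 74.0 and 70.2 FPKM and lay below CHLH in every library, with a log2 difference of -1.06 ± 0.061 (GUN4 minus CHLH). GUN4 overlaps AT3G59410 on the opposite strand over 946 bases. AT3G59410 had 7.30 FPKM on average, and the part of such reads in the value of GUN4 was not tested.

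The POR genes included the lowest and the fourth highest of the 39. PORB (AT4G27440, chromosome 4, 13725546 to 13727440) had 247.6, 248 and 249.8 FPKM. PORC (AT1G03630, chromosome 1, 907523 to 909650) had 113, 112 and 119 FPKM. PORA (AT5G54190, chromosome 5, 21990864 to 21992814) had 0.296, 0.0988 and 0.0659 FPKM, which correspond to 9, 3 and 2 recovered reads. The ranges of the 3 genes do not overlap, and PORA alone of the 39 genes was below 1 FPKM. The exact 95% Poisson intervals of the PORA values were 0.135 to 0.562, 0.0204 to 0.289 and 0.00798 to 0.238 FPKM and overlapped among the libraries, and such intervals cover counting error only. Over the 3 libraries together, PORB had 22269 reads and PORA 14, a ratio of 1618 per base with an exact 95% interval of 964 to 2960. The same ratio for PORC over PORA was 745 (444 to 1363). Both intervals treat the pooled reads as 1 Poisson sample and leave out spread between libraries. In single libraries the ratio ran from 836 to 3792 for PORB over PORA and from 382 to 1802 for PORC over PORA, beyond these intervals. On the log2(FPKM + 1) scale, which narrows ratios of low genes, PORB exceeded PORA by 7.76 ± 0.16 and PORC exceeded PORA by 6.65 ± 0.18, each in 3 of 3 libraries, and with a pseudocount of 0.1 in place of 1 by 10.04 and 8.93. PORB was 2.17 ± 0.063 times PORC, a log2 difference of 1.11 ± 0.041 in 3 of 3 libraries, and made up 68.5 ± 0.62% of the POR sum of 363 ± 4.76 FPKM. The evening element in the windows shown above was thus present upstream of both the lowest POR gene and the highest.

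The other genes of the branch lay below CHLM and CRD1 in every library. DVR (divinyl reductase) had 77.6 ± 1.68 FPKM and CHLG (chlorophyll synthase, which attaches the phytol tail) had 111 ± 0.864 FPKM. CAO (AT1G44446), the oxygenase that makes chlorophyll b, had 34.7, 34.3 and 36.6 FPKM. Apart from CHLI2 and PORA, CAO was the lowest gene of the branch in each library.

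The haem and bilin branch lay below the chlorophyll branch. Its 4 genes had a median of 37.9 ± 0.513 FPKM. The median of the single genes' log2(FPKM + 1) values was higher in the chlorophyll branch by 1.91 ± 0.019, and the log2 of the branches' median FPKM by 1.57 ± 0.041, each in 3 of 3 libraries. The 2 figures differ because the median of 4 genes is the mean of the middle genes, taken on the log scale or in FPKM. FC2 (AT2G30390, chromosome 2, 12950954 to 12954148), the ferrochelatase known from green tissue, had 67.5, 69.8 and 68.1 FPKM. FC1, the ferrochelatase also known from roots and stress, had 13.9, 13.8 and 15.0 FPKM, below FC2 in every library by a log2 difference of 2.19 ± 0.076 for FC2 over FC1. At the branch point, CHLH exceeded FC2 by 1.13 ± 0.040 in 3 of 3 libraries. CHLM, of the step after magnesium insertion, exceeded FC2 by 2.30 ± 0.020 in 3 of 3 libraries. The size of the difference depended on the chelatase subunit. Subunits D, H and I had 89.1, 151 and 245 FPKM, with CHLI1 and CHLI2 summed, and FC1 and FC2 together had 82.7 FPKM. HY1 (HO1), the haem oxygenase that opens the ring, had 60.6, 62.6 and 61.2 FPKM, and HY2, which completes phytochromobilin, had 6.68, 8.18 and 7.39 FPKM. HY1 was higher than HY2 by 2.90 ± 0.11 on the log2 scale in 3 of 3 libraries, and HY2 was the lowest enzyme of synthesis after PORA.

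FLU, a protein that holds back ALA synthesis in the dark by binding glutamyl-tRNA reductase, was expressed at a level close to that of its target. It had 107, 107 and 105 FPKM, above HEMA1 in every library by 0.21 ± 0.047 on the log2 scale.

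Breakdown genes covered a wide range. Their median was 32.7 ± 0.972 FPKM, and the median of their log2(FPKM + 1) values was below that of the chlorophyll branch by 1.78 ± 0.019 (chlorophyll branch over breakdown) in 3 of 3 libraries. The order of breakdown and the haem and bilin branch depended on the summary. In median FPKM, breakdown had 31.9, 32.6 and 33.8, below the 37.3, 38.2 and 38.1 of the haem and bilin branch, a log2 difference of -0.20 ± 0.031 (breakdown minus haem and bilin branch). With medians of log2 values the difference was 0.13 ± 0.0098, above 0 in 3 of 3 libraries, and with means of log2 values it was 0.0028. NYC1 (AT4G13250, chromosome 4, 7684156 to 7687006), a chlorophyll b reductase, was far above the rest with 150.1, 148 and 148 FPKM. Its partner NOL had 26.3, 24.2 and 23.0 FPKM, lower than NYC1 by 2.55 ± 0.083 (NYC1 over NOL), and HCAR, which completes the return of chlorophyll b to chlorophyll a, had 47.4 ± 0.551 FPKM.

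SGR1 and SGR2 of the STAY-GREEN family, known for removal of magnesium in senescence, were the lowest genes of breakdown. SGR1 (AT4G22920, chromosome 4, 12016420 to 12018643), the Mg-dechelatase of leaves, had 9.33, 10.6 and 10.05 FPKM. SGR2 (AT4G11910) had 1.88, 1.17 and 2.22 FPKM from 45, 28 and 53 reads, and its exact 95% Poisson intervals in replicates 5 and 6 (0.778 to 1.69 and 1.66 to 2.90 FPKM) overlap slightly. SGR1 was above SGR2 in every library, with a log2 difference of 2.01 ± 0.35, the widest log2 SD of the 19 gene ratios, and of 2.49 with a pseudocount of 0.1. Downstream, PPH (pheophytinase) had 35.3 ± 1.65 FPKM, PAO (pheophorbide a oxygenase, which opens the ring) 30.1 ± 0.303 FPKM, and RCCR (ACD2) 49.0 ± 2.08 FPKM. PAO lay below RCCR in every library, with a log2 difference of -0.68 ± 0.069 (PAO minus RCCR).

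**Figure D4:**
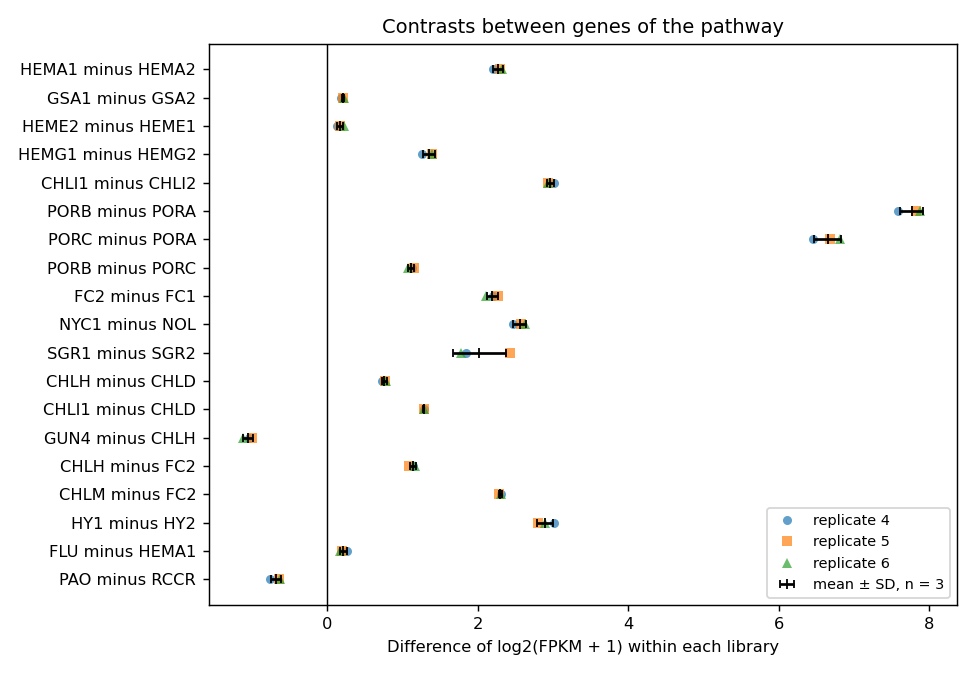
Differences of log2(FPKM + 1) between 2 genes of the pathway within each library (points, replicates 4, 5 and 6; bars, mean ± SD, n = 3); a value above 0 means that the first gene named is higher. The POR genes against PORA lie farthest from 0, at 7.76 and 6.65, and GUN4 minus CHLH and PAO minus RCCR are below 0 in all 3 libraries.

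In the order of the 39 levels, most neighbours were separated by more than the libraries' ranges. Of 38 neighbouring pairs, 11 overlapped. Among the highest genes CHLH overlapped with NYC1, PORC with HEMC, and HEMC with CHLG. From GSA1 the overlaps continued through HEMA1 and CHLD to HEME2, all with means of 87.5 to 92.1 FPKM, and a further group was GSA2, HEME1 and DVR, with means of 77.6 to 79.8 FPKM. The other overlapping pairs were RCCR with HCAR, PPH with CAO, and NOL with HEMG2.

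The libraries differed little in these genes. Over the 38 detected members the median coefficient of variation was 2.02%, from 0.454% in PORB to 30.4% in SGR2, and in 32 of the 38 the highest library was less than 1.1 times the lowest, against 51.9% of 17483 nuclear genes at a mean of 1 FPKM or more. The members were on average more highly expressed than those genes, and counting error falls with level. The median SD of log2(FPKM + 1) was 0.028 over the members and 0.062 over those nuclear genes. The variance of recovered reads over the libraries divided by their mean, which averages 1 for Poisson counting, was 1.41 on average over the 39 genes, from 0.0756 in HEMF1 to 4.2 in CHLH. Over 13715 nuclear genes of 100 reads or more it averaged 1.54. CHLH had 13482, 13476 and 13893 reads. Among the 38 detected members, 8 were highest in replicate 4, 15 in replicate 5 and 15 in replicate 6, against 32.5%, 34.4% and 33.2% of the 17483 nuclear genes. In replicates 4, 5 and 6 the median deviation from the gene's mean was -0.0091, 0.0048 and 0.00086 on the log2 scale over the members, and -0.000585, 0.0030 and -0.0016 over those nuclear genes.

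**Figure D5:**
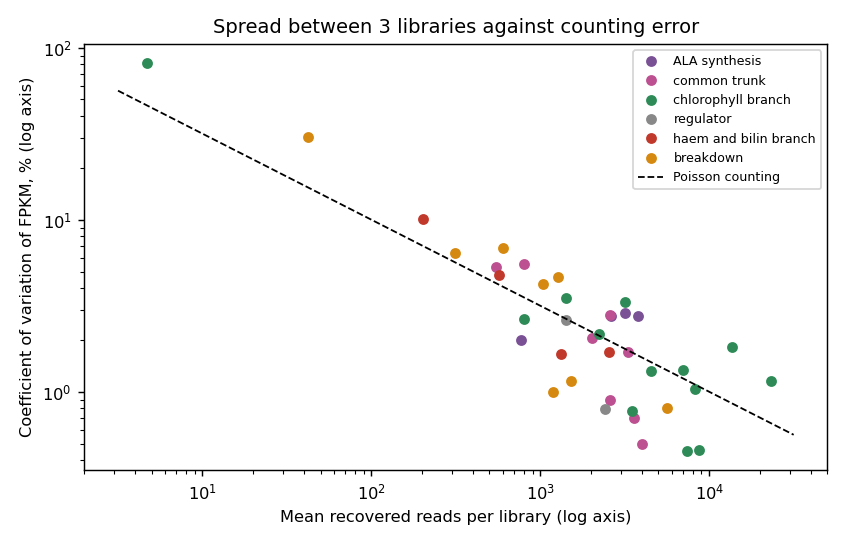
Coefficient of variation of FPKM over 3 libraries against mean recovered reads per library for the 39 genes, both on log axes, coloured by role; the dashed line is the spread of Poisson counting alone. The genes scatter about the line, with PORA (14 reads in all) and SGR2 (126 reads) at the upper left.

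The genes were spread over all 5 chromosomes, with 9, 4, 8, 8 and 10 on chromosomes 1 to 5. GUN4 and DVR had a single annotated exon. HEMB1 was the only member with words of 50 bases found elsewhere in the genome (8.33% of its words), and no annotated gene holds them. An annotated gene overlapped 19 of the 39, on the opposite strand for 14 of them. How common such overlaps are among all nuclear genes was not computed. The libraries were directional, but no source used here gives the strand setting of the counting, so reads of such overlaps could not be assigned. FLU shares 45 bases with AT3G14100, which had 155 FPKM, the most highly expressed of these neighbours.

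The upstream windows of the 39 genes were searched for the same 6 motifs, beside 26709 nuclear genes with a window of the same length. Every window was kept, whether or not it reached into a neighbouring gene. A G-box, a sequence bound by light-signalling factors such as HY5 and the PIFs, was present in 7 of 39 windows (17.9%) and in 6.58% of all windows. The 7 were HEMD, CRD1, CAO, FC2, HY2, NOL and SGR2, whose levels ran from 1.76 FPKM in SGR2 to 284 FPKM in CRD1. The evening element was in 3 windows (7.69%, PORA, PORB and NYC1) against 2.40% of all windows, and the CCA1 site in 5 (12.8%, HEMA2, GUN4, CRD1, HY2 and FLU) against 6.74%. The TATA box letters were in 19 (48.7%) against 47.7%. The GLK-type motif was in 3 (7.69%) against 10.2%, and the I-box in 3 (7.69%) against 12.2%. In 13 windows, including those of HEMA1, CHLH and CHLP, none of the 6 was found, which says only that these letters are not in this window. CRD1 and CAO are shown for their G-boxes, at 52 bases before the start in CRD1 and at 52 and 32 in CAO, at chr3:21076255-21076504 (plus strand) and chr1:16851272-16851521 (minus strand), with all 6 motifs in capitals.
CRD1: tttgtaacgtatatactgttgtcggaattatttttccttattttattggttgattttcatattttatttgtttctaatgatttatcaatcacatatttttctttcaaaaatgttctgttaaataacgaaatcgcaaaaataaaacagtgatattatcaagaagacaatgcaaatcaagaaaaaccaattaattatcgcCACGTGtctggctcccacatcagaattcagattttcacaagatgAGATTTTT
CAO: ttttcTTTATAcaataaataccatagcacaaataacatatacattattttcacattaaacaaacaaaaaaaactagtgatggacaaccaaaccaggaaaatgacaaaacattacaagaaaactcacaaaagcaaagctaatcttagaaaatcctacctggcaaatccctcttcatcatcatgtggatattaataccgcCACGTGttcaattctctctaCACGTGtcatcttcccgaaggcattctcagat

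Around the 39 genes, 24 further genes of the pathway were listed, and 20 of them were detected, with a median of 24.8 FPKM. The highest were LIL3:2 at 459 ± 9.95 FPKM and LIL3:1 at 158.5 ± 3.64 FPKM, light-harvesting-like proteins that hold CHLP at the membrane, and UPM1 at 208 ± 2.57 FPKM, the methyltransferase that draws off uroporphyrinogen III for sirohaem. SIRB, which inserts iron to form sirohaem, had 26.2 ± 1.74 FPKM. Further paralogs lay below the member they resemble: HEMA3 had 0.324 ± 0.153 FPKM, HEMB2 was at 0 in every library (up to 0.115 FPKM), and HEMF2 had 10.2 ± 0.128 FPKM. The other genes of the haem oxygenase family, HO2, HO3 and HO4, had 19.8 ± 1.27, 0.224 ± 0.078 and 0.039 ± 0.034 FPKM, below HY1. In breakdown, SGRL, a STAY-GREEN relative, had 65.5 ± 2.1 FPKM, above both SGR1 and SGR2 in every library. The chlorophyllase genes CLH1 and CLH2 had 64.6 ± 1.54 and 2.76 ± 0.665 FPKM.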

How the data were processed

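RNA of 3 wild-type libraries was analysed. Each deposited file lists 1 value per gene, under a header without a unit. They are read here as the authors' deposited FPKM, because Cufflinks is named. The unit is not settled, since in all 22408 genes above 0 the values fit whole reads over a whole length, as RPKM from whole reads would. TopHat2 2.0.9 and Cufflinks 2.1.1 are named in the submitters' processing notes, with the build TAIR10 and no roles. No source used here gives the strand setting or the treatment of multiple matches.

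Library totals and whole reads were recovered from the deposited FPKM, since each value is reads divided by a length and a total. The totals were 19921241, 19905762 and 19892527 reads in replicates 4, 5 and 6, and 1 read was worth 0.0502 FPKM in a gene of 1 kb. Reads were taken first from an annotated length, of a transcript or of all exons together, that gave whole reads. Otherwise they were used where a single fitting length lay between 0.7 times the shortest and 1.02 times the longest annotated length. By 1 of these ways reads were used for all 39 members and 20287 of 22408 genes above 0. On simulated data, 99.9% of 1066 genes solved by an annotated length gave back their exact reads, as did 99.9% of 1030 solved by the window. Whether the lengths taken for the deposited values were the right ones was not tested. Recovered reads served depth and intervals, and with a single group no count model applies.

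Levels are means ± SD over 3 libraries, differences are on the log2(FPKM + 1) scale with a pseudocount of 1, and detection means at least 1 FPKM in all 3 libraries. As background served 27197 nuclear genes that code for proteins, with nuclear identifiers of no listed type kept among them. Identifiers matched the RefSeq gene table of TAIR10.1 for 26719 genes (97.5%) and for all 39 members. Symbols that the table lacks are literature names. Files hold no coordinates, and every coordinate is 1-based on TAIR10.1. Upstream windows and coding sequences were read from that genome, and coding sequences were aligned with Biopython 1.88. Other values came from Python 3.11.15, numpy 2.4.6, pandas 2.3.3 and scipy 1.17.1. The members, lists, ratios and motifs were chosen with earlier results of these data known. All members are named, with further pathway genes named as the 3 highest, the 3 lowest and paralogs of members. SIRB, CLH1 and CLH2 were named after their values were seen. Alternatives were another pseudocount, other scalings, other detection levels, means for medians, medians of FPKM for medians of log2 values, a filter on the background, and leaving out each replicate.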

Additional observations from a re-analysis of the deposited data

How the results depend on the processing

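Of 176 recomputed values of 28 results, 151 moved by less than 1 SD between libraries (counts by no more than 1.5 times), 19 moved by 1 SD or more and 2 turned their sign. The other 4 are values of the members' median SD, which has no SD of its own. No comparison of groups was possible because there is 1 group, and all ratios were taken between genes within each library. The 151 include 27 values for each replicate left out. Leaving out 1 of 3 libraries cannot move a mean over them by 1 SD. For ratios and levels these values therefore do not test stability. The 151 also include 25 values with median-of-ratios scaling and 22 rescaled to the same sum in each library. Each difference lies within 1 library, so a factor for the whole library can move it only through the pseudocount. These values therefore hardly test stability either. The median SD of the members was 0.0198 to 0.0251 with 2 libraries and 0.029 with no filter on low values.

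With a pseudocount of 0.1, PORB minus PORA was 10.04, PORC minus PORA 8.93, SGR1 minus SGR2 2.49, HY1 minus HY2 3.04 and CHLI1 minus CHLD 1.29. In medians of log2 values the chlorophyll branch then exceeded the haem and bilin branch by 1.95 and breakdown by 1.81, breakdown minus the haem and bilin branch was 0.14, and the members exceeded the background by 4.01. Rescaled to the same sum in each library (TPM), with the pseudocount kept at 1, PORB minus PORA was 8.15, PORC minus PORA 7.03 and the members minus the background 3.84. These shifts come from the pseudocount being smaller beside the rescaled values. Against background genes at a mean of 1 FPKM or more, the last was 2.52.

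With means over members in place of medians, the members exceeded the background by 3.33, and the chlorophyll branch exceeded the haem and bilin branch by 1.82, the trunk by 0.57 and breakdown by 1.82. Breakdown minus the haem and bilin branch was then 0.0028, and ALA synthesis minus the trunk turned to -0.10. With the median taken in FPKM before the log2, an alternative chosen after seeing the data, breakdown minus the haem and bilin branch turned to -0.20, and the chlorophyll branch exceeded the haem and bilin branch by 1.57. Both of these orders, of ALA synthesis and trunk and of breakdown and the haem and bilin branch, thus rest on the summary chosen. Depth limits PORA, at 14 reads in all, and SGR2, at 126.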

Other observations

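Genes of the haem oxygenase family lay beside genes of ring synthesis at several places, a feature noticed after the values were seen. HO4 (0.039 ± 0.034 FPKM) is the next measured gene to HEMA1 (91.6 ± 2.51 FPKM), 1355 bases away on the same strand of chromosome 1. HO2 (19.8 ± 1.27 FPKM) is the next measured gene to HEMD (19.5 ± 1.04 FPKM), 786 bases away on the same strand of chromosome 2. HO3 (0.224 ± 0.078 FPKM) and HEMB1 (100.6 ± 1.72 FPKM) lie 3039 bases apart on chromosome 1, with 1 measured gene between them. Levels within these neighbouring pairs were thus close for HO2 and HEMD and far apart for the other pairs. Whether such neighbours are more frequent than in other pathways was not tested.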
